A study of Mus musculus with 2 samples.

Results

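Calb1, Calb2, Slc13a5, Slc24a4, Slc4a4, Atp2b1, Stim1, Car2 and Cftr code for proteins that bind or move calcium, citrate, bicarbonate and chloride. These 9 of the 31053 genes in the matrix were chosen by name for their place in ion handling during enamel formation. All 9 were found, and they were followed in the 4775 barcodes that passed minimum limits of 500 genes found and a maximum of 20% mitochondrial UMIs (unique molecular identifiers, which count captured RNA molecules). The cells came from mouse incisors of untreated C57BL/6 animals of 4 weeks, and every cell group below shares this strain, age and lack of treatment. Pulp was taken from the mandible together with dental epithelium, was digested with collagenase and was processed as single-cell 3′ libraries, although the labels give dental mesenchyme as the tissue. The 2 sample titles differ by lane and no list links barcodes to titles, so the matrix is 1 sample from an unknown number of animals. Cells of 1 sample are not replicates, so no difference below has a test or a replicate check.

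Enamel is made by ameloblasts, an epithelial cell layer that secretes a protein matrix in the secretory stage and then, in the maturation stage, removes this protein while mineral fills the space. Calcium for the mineral enters such cells through channels opened by the store sensor STIM1, is held by binding proteins of the calbindin family, and leaves through pumps such as the product of Atp2b1 and exchangers such as that of Slc24a4. Mineral growth releases acid, which is neutralised by bicarbonate that carbonic anhydrases form and SLC4A4 carries, with chloride moved by CFTR, while SLC13A5 takes up citrate, an anion found bound to mineral. The mesenchyme below the epithelium holds the pulp and the odontoblasts, which make dentin.

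After removal of 122 barcodes scored as doublets and 113 with haemoglobin RNA outside the red cell clusters, 4540 cells remained, with a median of 5791.5 UMIs. The 9 genes and a list of other transport genes were left out of the clustering, so that their levels did not form the groups. The epithelium had 769 cells (median 9304 UMIs) in 6 clusters and the mesenchyme 2197 cells (median 7009 UMIs) in 9 clusters, and the name of a cluster is its leading gene. Of the epithelial clusters, the Ambn cluster (264 cells) and the Atf3 cluster (39 cells) carried the enamel matrix genes of secretory ameloblasts and are called ameloblast-like. The Atf3 cluster was led by immediate early genes, with Fos at 2382 CPM (counts per 1000000 UMIs of the group) in this cluster and 74.7 CPM in the Ambn cluster. The Dspp cluster (141 cells), the Col22a1 cluster (44 cells) and the Grp cluster (192 cells, with cycling genes among its leading genes) met no single marker list and stay unnamed. The Dspp cluster nevertheless held all 5 secretory ameloblast markers, at 116789 CPM together. The Ambn and Atf3 clusters had 404585 and 294161 CPM of these, and the Grp, Enpp2 and Col22a1 clusters 899, 3006 and 3267 CPM. Comparisons below count the Dspp cluster among the other epithelial cells unless stated. The Enpp2 cluster (89 cells) carried markers of outer enamel epithelium or stellate reticulum, and Alpl and Notch2 were among its leading genes. All 7 stratum intermedium markers were also found in it, at 366 CPM together, against 11.8 to 79.2 CPM in the other epithelial clusters, so it is called by its leading gene. Markers of maturation ameloblasts were scarce, with Klk4 at 1.87 CPM, Odam at 5.13 CPM, Amtn at 12.5 CPM and Wdr72 at 0.197 CPM in the epithelium, against 193901 CPM for 5 secretory markers together. Among mesenchymal clusters, only the Dmp1 cluster (185 cells) is called odontoblast-like.

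In the mm10 build, the GENCODE M21 annotation places Calb1 at chr4:15881264-15908064, Calb2 at chr8:110137502-110168210, Slc13a5 at chr11:72241989-72267222, Slc24a4 at chr12:102128733-102267091 and Slc4a4 at chr5:88886818-89239653. It places Atp2b1 at chr10:98914406-99026143, Stim1 at chr7:102267806-102437319, Car2 at chr3:14886273-14900770 and Cftr at chr6:18170687-18322768. All are protein-coding genes. Exons of Slc13a5 overlap 1700051A21Rik and exons of Cftr overlap Gm15592 on the opposite strand. Whether the counting used the strand is not given in the sources used here, so reads of these pairs might be mixed. Gm15592 itself had 0 UMIs in the kept cells. The matrix has no row for 1700051A21Rik, so its level beside Slc13a5 could not be read. The lines below show the 250 bases before a RefSeq gene start (GRCm38.p6, plus strand) for Cftr, Atp2b1, Slc4a4 and Mmp20. Cftr and Atp2b1 had their highest epithelial CPM, with all UMIs in the totals, in the Dspp cluster. The level of Slc4a4 was set by another cluster, and Mmp20 was the gene whose levels were most like those of Slc13a5. None of these windows holds an annotated exon, and capitals mark the motifs GGGCGG (the GC box), TATAAA (the TATA box) and TAATTA (a homeobox core), searched on both strands with overlaps counted.
Cftr, chr6:18170437-18170686: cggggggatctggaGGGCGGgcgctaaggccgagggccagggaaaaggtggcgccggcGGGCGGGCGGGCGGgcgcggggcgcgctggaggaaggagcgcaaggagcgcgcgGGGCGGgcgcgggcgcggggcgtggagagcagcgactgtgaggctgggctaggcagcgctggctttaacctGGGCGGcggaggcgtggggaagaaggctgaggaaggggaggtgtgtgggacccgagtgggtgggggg
Atp2b1, chr10:98914902-98915151: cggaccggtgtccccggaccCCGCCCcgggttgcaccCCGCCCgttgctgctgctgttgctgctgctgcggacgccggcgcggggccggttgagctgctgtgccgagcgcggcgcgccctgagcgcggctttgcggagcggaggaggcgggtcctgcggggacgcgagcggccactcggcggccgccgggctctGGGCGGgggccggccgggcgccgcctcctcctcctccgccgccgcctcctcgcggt
Slc4a4, chr5:89027716-89027965: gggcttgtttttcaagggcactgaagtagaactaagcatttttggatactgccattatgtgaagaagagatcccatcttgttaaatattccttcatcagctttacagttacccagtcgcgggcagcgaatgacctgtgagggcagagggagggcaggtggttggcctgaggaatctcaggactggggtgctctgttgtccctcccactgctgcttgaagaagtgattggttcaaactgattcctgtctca
Mmp20, chr9:7627981-7628230: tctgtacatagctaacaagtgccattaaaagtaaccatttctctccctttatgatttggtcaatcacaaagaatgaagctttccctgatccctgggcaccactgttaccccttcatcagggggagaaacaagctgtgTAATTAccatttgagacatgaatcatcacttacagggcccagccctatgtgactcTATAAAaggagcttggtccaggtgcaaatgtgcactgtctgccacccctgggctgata
The GC box occurred 6 times before Cftr and 3 times before Atp2b1, and it is present in 32.7% of 32851 mouse promoter windows of the same length. The window of another RefSeq start of Atp2b1 (chr10:98914392-98914641), which overlaps an annotated exon and is not shown, held 4 GC boxes. The Atp2b1 and Slc4a4 windows shown lie inside the gene spans given above, so they precede internal starts. The Mmp20 window held 1 TATA box, a motif of 12.4% of windows, and 1 homeobox core, a motif of 4.84% of windows. The Slc4a4 window held none of these letters, although the window of another RefSeq start of Slc4a4 (chr5:88887010-88887259), which overlaps an annotated exon and is not shown, held 1 GC box. The window shown also lacked TGTGGT (a Runx core, 14.05% of windows) and TTGCNNAA (a C/EBP core, 9.56% of windows). Such matches describe the letters only.

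The first comparison set the epithelium beside the mesenchyme of the same tissue. Calb1, Slc13a5, Cftr, Atp2b1 and Slc4a4 were higher in epithelial cells, Car2 was lower, and Stim1 lay within 2-fold. Of the 9 genes, 7 had the 30 UMIs over both sides that were required of a measured gene. Of these 7, 5 were at least 2-fold higher, a call reached by 10.5% of 12920 measured genes, and 1 was at least 2-fold lower, a call reached by 20%. The enamel gene Amelx took 15.9% of all epithelial UMIs, which lowered every other gene's CPM there, and the median log2 ratio of all measured genes was −0.29. When genes that took over 1% of UMIs on a side were dropped from the totals (reduced totals) that median was 0.01, and then 6 genes were higher, Stim1 among them (log2 1.14), and 1 lower, beside 13.8% and 15% of all genes.

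**Figure D1:**
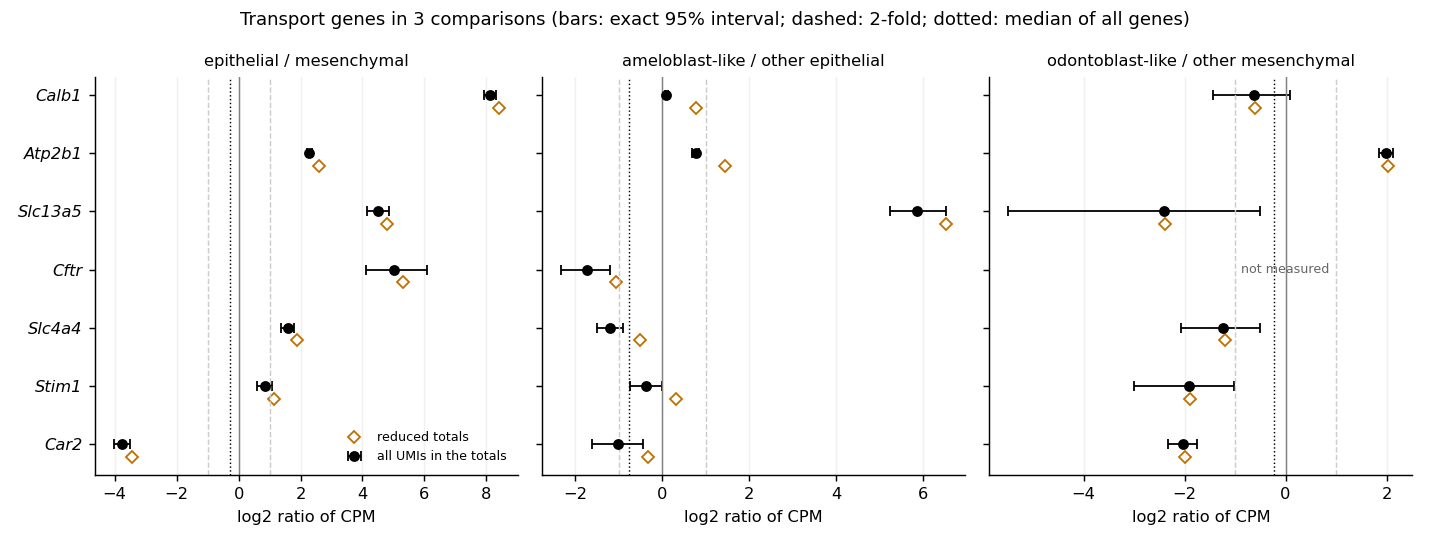
Log2 ratio of CPM for 7 transport genes (rows) in 3 comparisons (panels), with all UMIs in the totals (filled circles with exact 95% intervals) and with reduced totals (open diamonds). Calb1 (8.11), Cftr (5.01) and Slc13a5 (4.50) lie far to the epithelial side and Car2 (−3.75) to the mesenchymal side, and in the middle panel Slc13a5 stands apart from the other genes at 5.85.

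Calb1, the gene of the calcium buffer calbindin-D28k, had the widest gap between the layers. It had 3145 CPM in epithelial cells (31901 UMIs) and 11.3 CPM in mesenchymal cells (204 UMIs), a log2 ratio of 8.11 (7.92 to 8.32). Intervals are exact at 95% and cover counting error only. Epithelial cells held 98.3% of all Calb1 UMIs in the kept cells. After each cell was thinned to 2000 UMIs, which left out 692 shallower cells in all (58 epithelial and 164 mesenchymal), 66.9% of epithelial and 2.36% of mesenchymal cells had a Calb1 UMI; unthinned, the shares were 68.8% and 7.33%. B cell-like and macrophage- or monocyte-like cells, which should lack the gene, gave 5.88% and 5.30% at the same thinned depth (median depths before thinning 1694 and 4229 UMIs). The mesenchymal share therefore lay below background and is not read as expression. Droplets with 1 to 20 UMIs, taken as free RNA, had 267 CPM of Calb1.

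Within the epithelium Calb1 was graded. It had 3147 CPM in the Ambn cluster, 3981 CPM in the Atf3 cluster, 7878 CPM in the Dspp cluster, 1673 CPM in the Col22a1 cluster, 45.0 CPM in the Grp cluster and 238 CPM in the Enpp2 cluster. The intervals of the 4 highest clusters did not overlap, and the Grp cluster lay at the level of B cell-like (46.5 CPM) and macrophage- or monocyte-like cells (54.8 CPM), which is read as background. The median Dspp cell held 73 Calb1 UMIs (quartiles 39 and 128) and the median Ambn cell 35 (quartiles 18 and 60). The highest single cell, with 690 Calb1 UMIs among 71004, did not set the Dspp level, which was 7815 CPM without it. Between the ameloblast-like cells (3260 CPM) and all other epithelial cells (3057 CPM) Calb1 differed little, with a log2 ratio of 0.09 (0.06 to 0.12) with the Dspp cluster counted among the others. The Dspp cluster itself exceeded the ameloblast-like cells by a log2 ratio of 1.27 (1.24 to 1.31), which was 0.72 with reduced totals and then within 2-fold. Amelx took 9.89% of UMIs in the Dspp cluster and 31.8% in ameloblast-like cells.

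Calb2, the gene of the related buffer calretinin, was nearly absent, with 2 epithelial and 6 mesenchymal UMIs in all. At 0.197 and 0.334 CPM it was not measured in any comparison, and no epithelial or mesenchymal cluster had more than 2 UMIs.

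**Figure D2:**
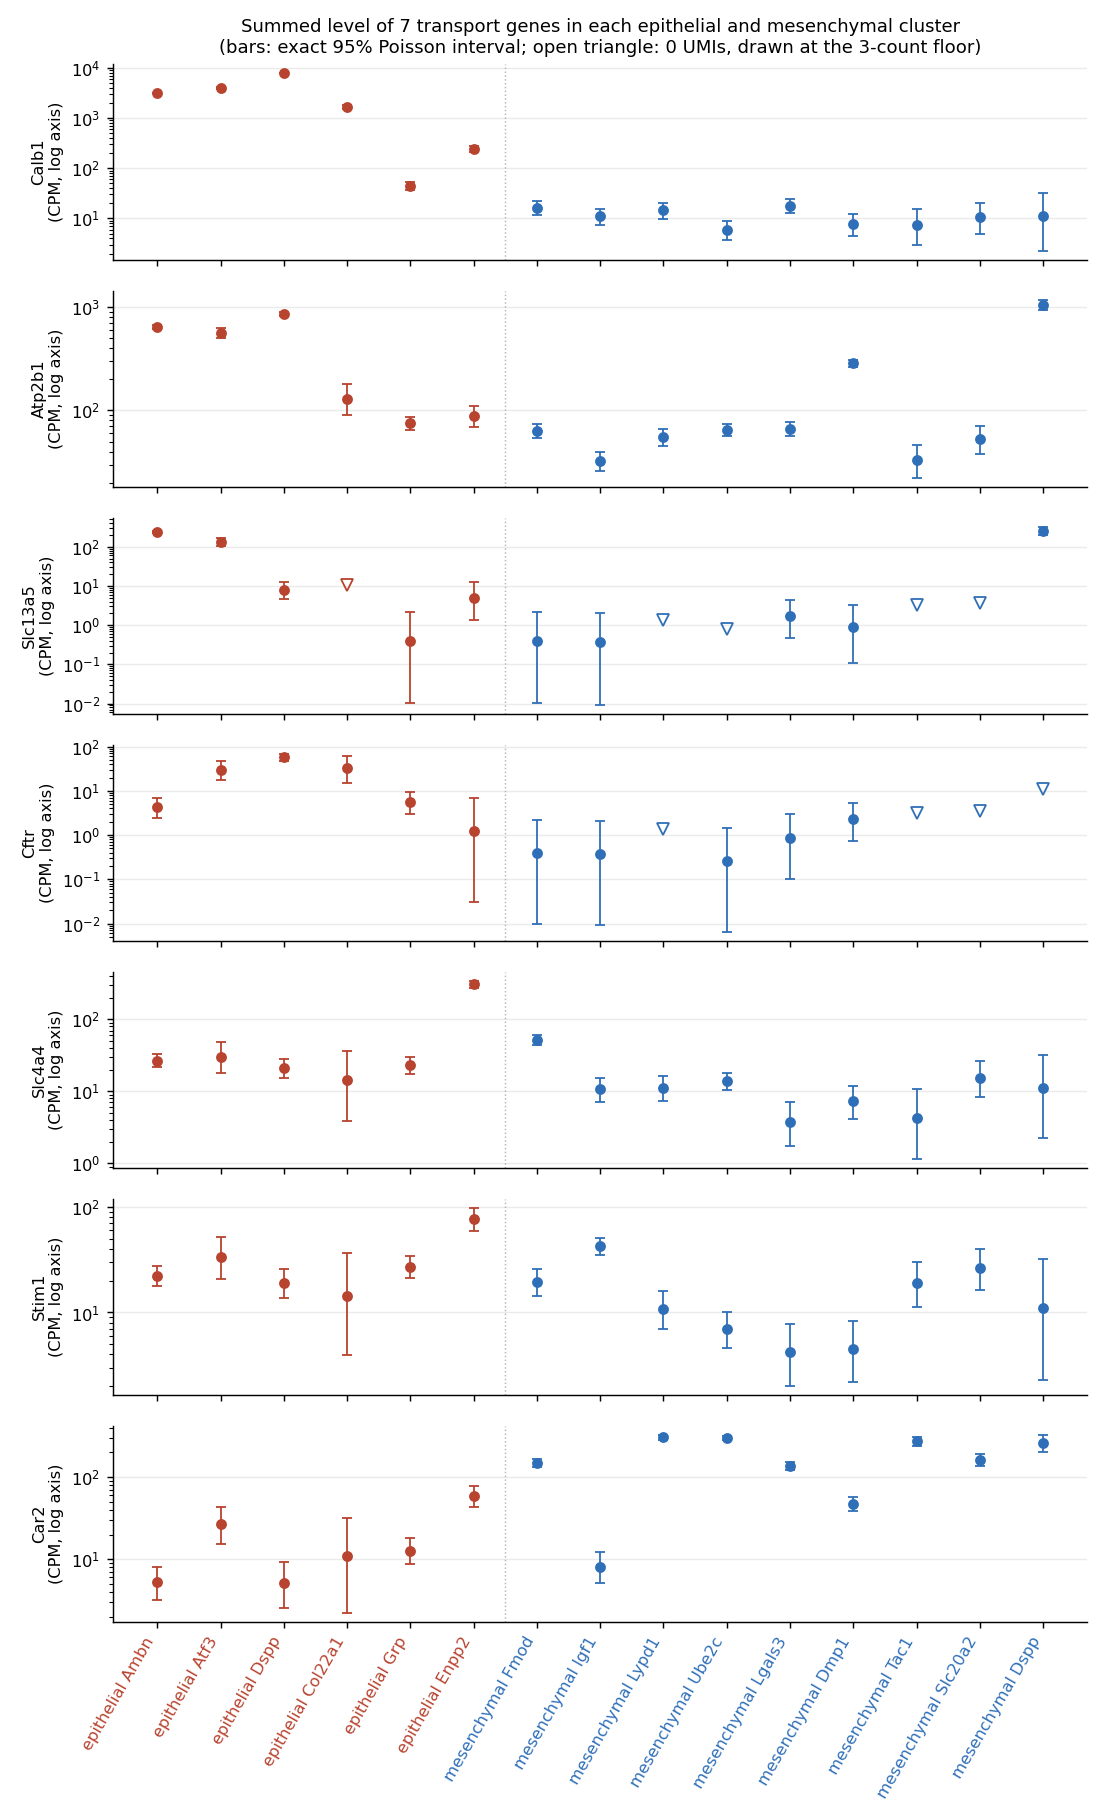
CPM (log axis) of 7 transport genes in the 6 epithelial clusters (red, left) and the 9 mesenchymal clusters (blue, right), with exact 95% Poisson intervals and open triangles at the 3-count floor for clusters with 0 UMIs. Calb1 peaks in the epithelial Dspp cluster at 7878 CPM, Slc4a4 in the epithelial Enpp2 cluster at 306 CPM, and Slc13a5 and Atp2b1 reach 257 and 1047 CPM in the mesenchymal Dspp cluster.

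Slc13a5, the gene of a sodium-coupled citrate transporter of the plasma membrane, was the most selective of the 9 genes within the epithelium. It had 235 CPM in the Ambn cluster, 130 CPM in the Atf3 cluster, 7.97 CPM in the Dspp cluster, 4.84 CPM in the Enpp2 cluster and 0.398 CPM in the Grp cluster, and it had 0 UMIs in the Col22a1 cluster, where 3 counts would give 10.8 CPM. Only the ameloblast-like clusters stood high, and the intervals of both lay above those of every other epithelial cluster. Ameloblast-like cells had 221 CPM (971 UMIs) and the other epithelial cells 3.83 CPM (22 UMIs), a log2 ratio of 5.85 (5.25 to 6.53). This ratio depended on which cells were called ameloblast-like. It was 3.50 with doublets kept and 1.07 when 1000 detected genes were required, where only 77 of the 303 cells kept the name and 193 counted as other epithelial. The thinned share of cells with a UMI was 37.1% in ameloblast-like cells and 0.480% in other epithelial cells, while unthinned it was 80.2% and 3.65%. None of 491 macrophage- or monocyte-like cells had one at that depth (0 of 491, which allows up to 0.611%), nor did any of 68 B cell-like cells (up to 4.41%). The median Ambn cell had 3 UMIs and the highest 15. Over the layers, Slc13a5 had 97.9 CPM in the epithelium and 4.34 CPM in the mesenchyme (log2 4.50, 4.16 to 4.85), and the log2 ratio was 7.76 without the 22 cells of the mesenchymal Dspp cluster described further on.

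Cftr, the gene of a chloride channel of epithelia, was low where Slc13a5 was highest. Its CPM was 4.21 in the Ambn cluster, 30.3 in the Atf3 cluster, 58.1 in the Dspp cluster, 32.5 in the Col22a1 cluster, 5.57 in the Grp cluster and 1.21 in the Enpp2 cluster. The Dspp cluster alone held 64.6% of all Cftr UMIs in the kept cells (124 of 192), spread over 62 of its 141 cells. The Dspp cluster (48.4 to 69.3) lay above the Atf3 cluster (18.0 to 47.96), while the interval of the Col22a1 cluster (14.8 to 61.6) overlapped both. Ameloblast-like cells had 7.74 CPM and other epithelial cells 25.7 CPM (log2 −1.73, −2.32 to −1.19), and the Dspp cluster exceeded the ameloblast-like cells by 2.91 (2.35 to 3.50). Over the layers, Cftr had 17.9 CPM in the epithelium and 0.556 CPM (10 UMIs) in the mesenchyme. Its thinned share was 2.39% of epithelial cells (13.8% unthinned) and 0 of 491 macrophage- or monocyte-like cells.

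A finer grouping of the same epithelial cells separated Slc13a5 and Cftr more sharply. Of its 10 clusters, the Opcml, Fosb and Clu clusters (142, 49 and 104 cells) had 256, 235 and 188 CPM of Slc13a5, with 2.92, 1.28 and 7.43 CPM of Cftr. The Dspp cluster (126 cells) and an Atf3 cluster (16 cells) had 4.84 and 4.38 CPM of Slc13a5, with 63.5 and 78.9 CPM of Cftr. Immediate early genes led both the Fosb and the Atf3 cluster, on either side of this division. In this grouping the Col22a1, Ube2c and Atf3 clusters (53, 119 and 16 cells) met the pre-ameloblast list. The Grp cluster (71 cells) met the dental epithelial progenitor list, while the Dspp cluster stayed unnamed.

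Atp2b1, the gene of the plasma membrane calcium pump PMCA1, was present throughout and highest in the matrix-forming clusters. It had 639 CPM in the Ambn cluster, 563 CPM in the Atf3 cluster, 853 CPM in the Dspp cluster, 130 CPM in the Col22a1 cluster, 75.6 CPM in the Grp cluster and 88.2 CPM in the Enpp2 cluster. The Dspp cluster lay above the Ambn cluster beyond their intervals, and the Ambn and Atf3 clusters overlapped. Amelx took 32.9% of UMIs in the Ambn cluster and 9.89% in the Dspp cluster, which lowered other genes' CPM more in the former. Between the Dspp cluster and the ameloblast-like cells Atp2b1 was within 2-fold. The median log2 ratio of all measured genes there was 0.40, and −0.15 with reduced totals. The order of these clusters is therefore not read as a difference in Atp2b1. Epithelial cells had 481 CPM and mesenchymal cells 98.5 CPM (log2 2.29, 2.21 to 2.37). Ameloblast-like cells had 629 CPM and other epithelial cells 368 CPM, within 2-fold (log2 0.77) but at least 2-fold higher with reduced totals (1.45). The thinned share was 68.4% in ameloblast-like and 33.8% in other epithelial cells. No cell type was set as lacking the gene, and macrophage- or monocyte-like cells had 309 CPM.

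Slc24a4, the gene of a potassium-dependent sodium-calcium exchanger that is needed for enamel maturation, was rare. It had 20 epithelial and 5 mesenchymal UMIs, too few to be measured, and the epithelial UMIs lay in 7 cells of the Ambn cluster (9 UMIs) and the Dspp cluster (11 UMIs). Of these 7 cells, 3 had 4 UMIs each, 2 had 3 and 2 had 1, in totals of 17432 to 41919 UMIs per cell. In the finer grouping all 20 epithelial UMIs lay in the Clu cluster (104 cells, 10.6 CPM, 6.48 to 16.4), which met the secretory ameloblast list. After thinning no epithelial cell kept a Slc24a4 UMI (0 of 711, which allows up to 0.422%).

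Stim1, the gene of the calcium sensor of the endoplasmic reticulum, was low in every cluster. It had 22.4 CPM in the Ambn cluster, 33.7 CPM in the Atf3 cluster, 19.2 CPM in the Dspp cluster, 14.4 CPM in the Col22a1 cluster (4 UMIs), 27.1 CPM in the Grp cluster and 77.4 CPM in the Enpp2 cluster. The Enpp2 cluster was above the rest of the epithelium, at 77.4 against 23.4 CPM (log2 1.73, 1.30 to 2.13), and the other clusters overlapped. Epithelial cells had 27.8 CPM and mesenchymal cells 15.5 CPM (log2 0.84, 0.60 to 1.08). The mesenchymal Igf1 cluster, which carried follicle markers, had 42.7 CPM and the odontoblast-like cells 4.52 CPM.

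Slc4a4, the gene of a sodium-bicarbonate cotransporter, was an Enpp2 cluster gene within the epithelium. It had 26.8 CPM in the Ambn cluster, 30.3 CPM in the Atf3 cluster, 21.1 CPM in the Dspp cluster, 14.4 CPM in the Col22a1 cluster, 23.1 CPM in the Grp cluster and 306 CPM in the Enpp2 cluster. The last of these held 253 of the 480 epithelial UMIs, and the other 5 clusters overlapped. A single cell of the Enpp2 cluster had 56 UMIs among 23776, and the cluster had 245 CPM (212 to 282) without it. Against the rest of the epithelium at 24.4 CPM, the log2 ratio of the Enpp2 cluster was 3.65 (3.39 to 3.92). Across the layers Slc4a4 stood at 47.3 CPM in the epithelium against 15.8 CPM in the mesenchyme (log2 1.58, 1.37 to 1.80). The mesenchymal Fmod cluster had 51.9 CPM and 131 of the 284 mesenchymal UMIs. Thinned shares were 30.8% in the Enpp2 cluster, 12.3% in the mesenchymal Fmod cluster and 0.204% in macrophage- or monocyte-like cells (unthinned 53.9%, 23.2% and 1.04%).

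Car2, the gene of cytosolic carbonic anhydrase II, was the measured gene of the set that was lower in the epithelium than in the mesenchyme. Epithelial cells had 12.9 CPM and mesenchymal cells 174 CPM (log2 −3.75, −4.02 to −3.50). In epithelial clusters it had 5.26 CPM (Ambn), 27.0 CPM (Atf3), 5.16 CPM (Dspp), 10.8 CPM (Col22a1), 12.7 CPM (Grp) and 59.2 CPM (Enpp2). The thinned share was 1.83% of epithelial and 23.1% of mesenchymal cells, against 7.35% of B cell-like cells (unthinned 9.23%, 46.8% and 5.34%), so the epithelial share lay below that of B cell-like cells and is not read as expression. Macrophage- or monocyte-like cells had a lower share, 1.43% thinned and 2.42% unthinned. The level in the epithelial Enpp2 cluster (43.8 to 78.3 CPM) overlapped that in B cell-like cells (37.7 CPM, 21.9 to 60.3). In the mesenchyme it had 304 CPM in the Lypd1 cluster, which carried apical mesenchyme markers, 301 CPM in the cycling Ube2c cluster, 273 CPM in the Tac1 cluster, 161 CPM in the Slc20a2 cluster, 148 CPM in the Fmod cluster, 136 CPM in the Lgals3 cluster, 47.0 CPM in the Dmp1 cluster and 8.10 CPM in the Igf1 cluster. The Igf1 and Dmp1 clusters were the low ones.

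In the Enpp2 cluster 3 of the 7 measured genes were at least 2-fold higher than in the other epithelium, a call of 18.2% of genes. These were Slc4a4, Stim1 and Car2 (log2 2.75, 2.21 to 3.28). The Car2 level there was 59.2 CPM. It overlapped that of B cell-like cells but lay above that of macrophage- or monocyte-like cells (6.86 CPM, 4.19 to 10.6). Free RNA had 77.7 CPM, which does not give the part of free RNA inside cells. Whether Car2 is expressed in this cluster was not tested. The other 4, Calb1, Slc13a5, Atp2b1 and Cftr, were at least 2-fold lower, a call of 8.61%. In the Dspp cluster Calb1, Atp2b1 and Cftr were at least 2-fold higher than in the other epithelium, a call of 5.86% of genes (Atp2b1 was within 2-fold with reduced totals, at 0.99), and Slc13a5, Slc4a4 and Car2 were at least 2-fold lower, a call of 18.2%. In the ameloblast-like cells 1 gene, Slc13a5, was higher, a call of 3.47% of 10565 genes, and 3 were lower (Slc4a4, Car2 and Cftr), a call of 38.3%. With reduced totals 2 were higher (Slc13a5 and Atp2b1) and only Cftr was lower (−1.06), beside 9.62% and 18.6% of genes. Slc4a4 was then within 2-fold (−0.52), as was Car2 (−0.33), which had lain at the threshold (−1.01).

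The odontoblast-like Dmp1 cluster was then set beside the other mesenchyme. Atp2b1 was the 1 gene that was higher, a call of 7.45% of 12058 genes. It had 286 CPM in odontoblast-like cells and 72.1 CPM in other mesenchymal cells (log2 1.99, 1.85 to 2.13), with thinned shares of 38.4% and 11.2%. Slc13a5, Slc4a4, Stim1 and Car2 were at least 2-fold lower, a call of 21.7% of genes. Car2 had 47.0 CPM in odontoblast-like cells and 192 CPM in the others (log2 −2.03, −2.33 to −1.75), and Stim1 had 4.52 and 17.1 CPM. For Slc13a5 the comparison rested on 2 UMIs in odontoblast-like cells, and 70 of the 76 UMIs on the other side came from 22 cells. Without those cells it was 2 against 6 UMIs, too few to be measured, and the direction turned (log2 1.22, −2.12 to 3.71).

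Those 22 cells formed the mesenchymal Dspp cluster, which ranked highest of the 25 cell groups for both Slc13a5 and Atp2b1, the first without a gap to the next group beyond counting error. Dspp, Bglap, Ibsp and Mmp20 led this cluster, and odontoblast and osteoblast markers both stood high in it (3520 and 63927 CPM for the 2 lists, with Mepe and Col10a1 at 0), so it is not named. Slc13a5 had 257 CPM (200.5 to 325) in it and 0.452 CPM in all other mesenchymal cells, where 2175 cells held 8 UMIs. The log2 ratio was 9.15 (8.10 to 10.42). Its level overlapped that of the epithelial Ambn cluster (235 CPM, 220.02 to 251). The UMIs lay in 18 of the 22 cells, with a median of 2 and at most 12 per cell, and without the cell with 12 the level was 237 CPM. After thinning, 27.3% of these cells had a Slc13a5 UMI (10.7 to 50.2%).

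Atp2b1 had 1047 CPM (929 to 1176) in the mesenchymal Dspp cluster and 83.9 CPM in the other mesenchyme (log2 3.64, 3.45 to 3.83), and it was found in 21 of the 22 cells. Car2 had 261 CPM there and 173 CPM in the other mesenchyme, within 2-fold. Calb1 had 11.02 CPM (3 UMIs), close to the 11.4 CPM of the other mesenchyme, while Cftr and Slc24a4 had 0 UMIs, where 3 counts would give 11.02 CPM. Of the 9 genes, 6 were measured in this small cluster and 2 of them were at least 2-fold higher, a call of 20% of all measured genes. With reduced totals 2 were again higher, beside 26.4% of genes.

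Signs of epithelial RNA were low in these 22 cells. Amelx took 0 to 0.141% of the UMIs of each cell (median 0.0116%), against 11.6 to 51.1% (median 32.6%) in cells of the epithelial Ambn cluster. Krt14 had 3.67 CPM and Epcam 11.02 CPM in the cluster, against 824 and 195 CPM in the epithelium. The 5 secretory ameloblast markers, all detected, summed to 1352 CPM, against 389681 CPM in ameloblast-like cells, and Mmp20, the enamelysin gene, was 382 CPM of this. Free RNA held 11.5 CPM of Slc13a5 and 14928 CPM of Amelx. The part of other cells' RNA in the Slc13a5 level was not tested beyond these values.

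Over all 31 cell clusters, Mmp20 was the gene whose log2(CPM + 5) followed that of Slc13a5 most closely among 11895 genes (Pearson r = 0.858, and 0.864 over the 30 clusters without the mesenchymal Dspp cluster). It had 1900 CPM in the epithelial Ambn cluster, 1378 CPM in the Atf3 cluster and 1226 CPM in the epithelial Dspp cluster, where Slc13a5 was low. Calb1 was followed most closely by Krt27 (0.945), Ckmt1 (0.936) and Gm4675 (0.927), and Cftr by Esyt3 (0.916), Bean1 (0.914) and 9530059O14Rik (0.911). The nearest genes to Slc4a4 were Nipal2 (0.881) and Scube3 (0.871), those to Atp2b1 were Tmem248 (0.767) and Relt (0.749), those to Stim1 were Vps13a (0.745) and Ggnbp2 (0.717), and those to Car2 were Mtfp1 (0.780) and Pck2 (0.725). Within the set, Calb1 and Cftr were the closest pair (0.819), then Slc13a5 and Atp2b1 (0.596), while Car2 was not close to any (at most 0.217, with Slc4a4). These correlations describe clusters of 1 sample that share library and free RNA.

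**Figure D3:**
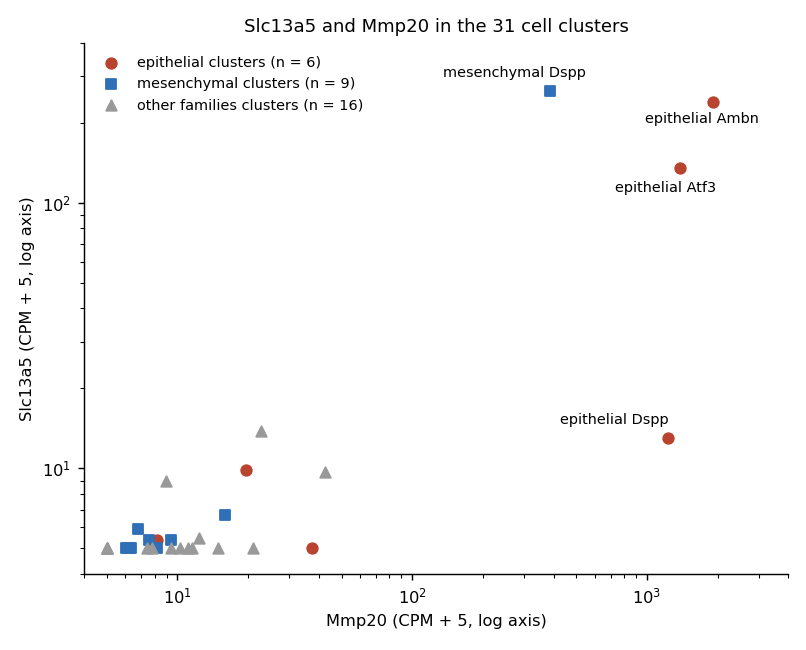
Slc13a5 against Mmp20 (CPM + 5, both log axes) in the 31 cell clusters, coloured by family. The epithelial Ambn and Atf3 clusters and the mesenchymal Dspp cluster hold both genes, whereas the epithelial Dspp cluster holds 1226 CPM of Mmp20 with 7.97 CPM of Slc13a5.

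In single cells, Slc13a5 and Atp2b1 were found together about as often as the product of their shares. Of 294 thinned ameloblast-like cells, 26.9% had UMIs of both (21.9 to 32.3%), where the product was 25.3%. The median ameloblast-like cell had UMIs of 2 of the 9 genes and the median mesenchymal cell of 0.

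The wider transport system was read from a list of 75 other genes of calcium, bicarbonate, proton and citrate handling. Of these, 49 were measured between the layers, with 17 at least 2-fold higher and 7 lower in the epithelium (10.5% and 20% of all genes), and 22 higher and 5 lower with reduced totals. Their median log2 ratio was 0.29, beside −0.29 for all genes (0.59 and 0.01 with reduced totals). Calcium entry and store genes had 5 of 10 higher and 1 lower. The store release channel genes Itpr3 (169 against 3.89 CPM, log2 5.44, 5.09 to 5.80) and Itpr1 (192 against 14.5 CPM) were the highest of these, and Itpr2 was the lower one (1.97 against 5.12 CPM). Of 7 measured calcium extrusion genes, 3 were higher in the epithelium, namely the exchangers Slc24a3 (38.8 against 1.89 CPM) and Slc24a2 (14.7 against 1.17 CPM) and the pump Atp2b4 (51.2 against 15.3 CPM). The sodium-calcium exchangers Slc8a3 (0.197 against 11.6 CPM, log2 −5.88) and Slc8a2 (0.296 against 4.95 CPM) were lower, and Slc24a5 and Slc8b1 were within 2-fold.

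Among bicarbonate, chloride and proton genes 8 of 21 were higher, led by the sodium pump subunit Atp1b1 (35.8 against 1.67 CPM), and 1 lower. With reduced totals 9 were higher and 0 lower. All measured genes were higher in 10.5% and lower in 20% of cases, or 13.8% and 15% with reduced totals. Carbonic anhydrases had 1 of 6 higher, Car13 (25.9 against 3.89 CPM), and 3 lower, Car1 (0.493 against 4.73 CPM), Car11 (0.887 against 4.73 CPM) and Car12 (21.8 against 51.7 CPM). With reduced totals 1 was higher and 2 lower, and Car12 was within 2-fold (log2 −0.95). The 5 measured citrate genes, such as the mitochondrial citrate exporter gene Slc25a1, were all within 2-fold, although 2 were higher with reduced totals.

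**Figure D4:**
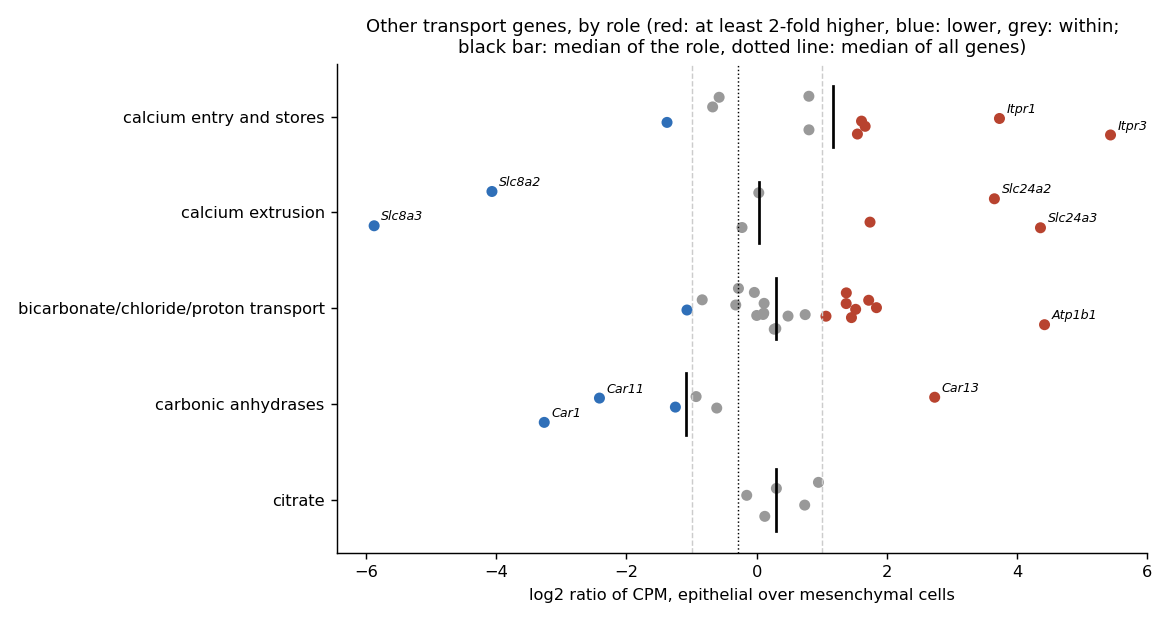
Log2 ratio of CPM, epithelial over mesenchymal cells, for the 49 measured genes of the transport list, by role, with the median of each role (black bar) and of all genes (dotted line). Itpr3 (5.44) and Slc8a3 (−5.88) mark the extremes, and the citrate genes lie within the dashed 2-fold lines.

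Within the epithelium, 4 of 42 measured list genes were at least 2-fold higher in ameloblast-like cells and 14 lower, beside 3.47% and 38.3% of all genes (9 and 8 with reduced totals, beside 9.62% and 18.6%). The higher ones were Itpr1 (358 against 65.2 CPM in other epithelial cells, log2 2.46, 2.29 to 2.62), Slc24a2 (26.6 against 5.56 CPM), the store pump gene Atp2a2 (422 against 165 CPM) and Slc24a3 (56.0 against 25.7 CPM). Of 20 bicarbonate, chloride and proton genes, 0 were higher and 9 lower (2 and 6 with reduced totals), to be read against the same shares of all genes. The lower ones included Atp1b1 (0.910 against 62.4 CPM, log2 −6.10), the anion exchanger Slc26a7 (0.683 against 19.5 CPM), the sodium-potassium-chloride cotransporter Slc12a2 (2.96 against 45.6 CPM), the scaffold gene Slc9a3r1 (1.59 against 15.3 CPM) and the chloride channel Ano1 (7.74 against 45.2 CPM). The other epithelial cells include the Enpp2 cluster. There 11 of the 20 genes, with all those just named, were at least 2-fold higher than in the rest of the epithelium, and 0 lower. The shares of all genes were 18.2% and 8.61%. With reduced totals the counts were again 11 and 0, beside 10.7% and 12.3% of genes. How far this cluster set the lower levels was not tested.

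In odontoblast-like cells 6 of 46 measured list genes were higher and 8 lower than in the other mesenchyme, beside 7.45% and 21.7% of all genes. Slc8a2 had 25.3 CPM in odontoblast-like cells and 2.09 CPM in other mesenchymal cells (log2 3.60, 2.95 to 4.26), and Slc8a3 had 56.0 and 5.33 CPM. Ano6, a scramblase gene, had 126 and 25.1 CPM. Car11 (0.452 against 5.33 CPM), Slc8b1 (0.904 against 4.38 CPM) and Slc24a3 (0.452 against 2.09 CPM) had lower levels, each with 1 or 2 UMIs in odontoblast-like cells, and the interval of Slc24a3 (log2 −7.56 to 0.37) included 0.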

How the data were processed

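Single-cell 3′ RNA libraries of 1 tissue were read from 1 deposited matrix of UMI counts (68931830 UMIs, 6794880 barcodes, software version 3.0.2 per the file headers). The build was mm10 per the submitters' processing notes, which also name R 3.4.1 and Seurat, and the values are the authors' deposited counts before cell filtering. The 9 genes, the marker lists and the transport list were chosen with earlier results of these data known.

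From the counts, barcodes with at least 500 genes and at most 20% mitochondrial UMIs were kept. Doublets were removed at a Scrublet score above 0.15 (2.55% of barcodes; the automatic threshold called 1), and barcodes above 5% haemoglobin UMIs outside erythroid clusters were removed (2.37%). Clustering used Python 3.11.15 and scanpy 1.11.5 (10000 UMIs per cell, 2000 variable genes, 30 components, 15 neighbours, Leiden at resolution 1.0 and then 0.5 within families, leidenalg 0.10.2, seed 0), with the marker genes left in. A cluster was named where at least 3 markers of a list were raised and its leading genes did not go against the name. UMIs were summed per group and given as CPM with exact Poisson intervals, ratios with exact conditional binomial intervals and shares of cells with Clopper-Pearson intervals (scipy 1.17.1, 95%). A gene was measured at 30 UMIs over both sides and called at 2-fold. For 0 UMIs the floor was 3 counts over the group. The procedure was tested on simulated data.

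Named were the 9 genes, up to 6 transport genes per direction past 2-fold and the 3 genes most like each gene with at least 100 UMIs. Alternatives tried were reduced totals, cells weighted equally, 1000 detected genes, a 10% mitochondrial limit, doublets kept, first-step resolutions of 0.5 and 2.0, listed genes used in clustering, a 10 UMI minimum, 1.5-fold, other thinning depths, and 4 changes of cluster assignment chosen after seeing the data. Some results are not reported here.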

Additional observations from a re-analysis of the deposited data

How the results depend on the processing

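No paired analysis was possible because the matrix is 1 sample and no comparison has a test. In ameloblast-like against other epithelial cells, 1 of the 9 genes was higher and 3 lower, and 4 transport list genes were higher and 14 lower. With reduced totals these became 2, 1, 9 and 8. The shares of all genes went from 3.47% higher and 38.3% lower to 9.62% and 18.6%. No share of all genes was taken for the other settings below, so their counts are not read as results about these genes. With at least 1000 detected genes the clusters changed as well as the filter, so that 87 cells were called ameloblast-like and 592 other epithelial. In those groups 1 of the 9 was lower and 2 list genes were higher. At 1.5-fold, 2 of the 9 were higher. With the epithelial Dspp cluster counted as ameloblast-like, a change chosen after seeing the data, 4 of the 9 and 9 list genes were higher, and the log2 ratio of Cftr became 1.87, against −1.73. With a minimum of 10 UMIs, 2 of the 9 genes were higher in odontoblast-like cells, against 1; without the mesenchymal Dspp cluster, also chosen after seeing the data, Slc13a5 there became 1.22, against −2.42, and at 1.5-fold 11 list genes were lower in the epithelium, against 7. The causes were not tested. At the 10% mitochondrial limit no cluster met the ameloblast-like name, so that comparison gave no value. Depth limits Slc24a4 and Calb2, which had too few UMIs for any comparison, and the mesenchymal Dspp cluster rests on 22 cells.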
